A study of Arabidopsis thaliana with 12 samples.

Results

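The genes described here are 101 Arabidopsis thaliana genes that the annotation names by a bare locus code and whose mean signal in roots was apart from the control under arsenate and hypoxia together while it stayed near the control under each treatment alone. They were chosen by these array signals from 14745 locus-coded genes among 16550 genes measured, by group means of log2 signal minus the control mean. A gene was taken if the combination differed by at least 0.8 in either direction, if arsenic and hypoxia each lay between -0.5 and 0.5, and if its 3 combination arrays all lay above or all below its 3 control arrays. Of the 101 genes, 64 were higher and 37 lower in the combination. A locus code is a serial address (AT, the chromosome number, G, and a number that grows along the chromosome). The annotation used here gives these genes no name and no product, so no role is stated for any of them. Of the 101, 99 were matched to a RefSeq gene, all 99 protein-coding, and AT3G44700 and AT3G19663 were not.

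Roots of Col-0 plants in hydroponic culture were taken when the plants were 39 days old, the last 7 days of them under treatment, and their total RNA was hybridised to 12 Affymetrix arrays, 3 for each of 4 groups. The control roots had no treatment, the arsenic roots were given 250 µM arsenate, the hypoxia roots stood in hypoxic nutrient medium, and the combination roots were given 250 µM arsenate in hypoxic medium. The series text states independent biological replicates, and the oxygen content of the hypoxic medium is not stated in it. The labels give the tissue as root.

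As background, arsenate resembles phosphate and enters root cells through phosphate transporters, after which it is reduced to arsenite, a form that binds thiol groups. Low oxygen limits mitochondrial respiration and turns plant cells towards fermentation, under transcription factors that are degraded as long as oxygen is present. Both treatments therefore touch the energy and redox state of the cell, and a plant in waterlogged, arsenic-bearing soil meets them together. The study set each treatment beside the combination of both.

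Array signals here are log2 values, so a difference of 1 is a doubling of the signal, and signals of different genes are not compared as amounts of RNA because probes differ in brightness. Array medians lay between 4.72 and 4.99, first quartiles between 3.06 and 3.18, and within a group the arrays had pairwise correlations over genes of r = 0.972 to 0.991. Between arrays of different groups r was 0.924 to 0.982, so the 2 ranges overlapped. Of 15 genes listed as a check of the hypoxia label, 9 were measured, and all 9 had higher means in hypoxia and combination than in control roots. PDC2, a pyruvate decarboxylase of ethanol fermentation, averaged 4.82 in control, 4.89 in arsenic, 7.02 in hypoxia and 6.94 in combination roots. Of 23 root genes listed as tissue markers 4 were measured. PYK10, a root beta-glucosidase, averaged 12.15 in control, 11.23 in arsenic, 11.00 in hypoxia and 10.78 in combination roots. The root hair expansin EXPA7 averaged 8.10, 7.13, 5.38 and 5.01 in that order, EXPA18 5.97, 4.77, 3.85 and 3.10, and XTH26, a root hair wall enzyme, 6.78, 4.65, 4.72 and 4.23. Root is a mixture of cell types, and on whole roots fewer cells of a type and less RNA per cell cannot be told apart. Of 10 green tissue genes 2 were measured, PSAN (photosystem I) at 3.76 in control and 3.04 in combination roots and RCA (Rubisco activase) at 5.31 and 5.72. The part of these shifts in the results below was not tested.

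Most differences among the 101 genes were modest. The median of the 64 higher genes was 0.90, a 1.87-fold higher signal, with a range from 0.80 to 1.57. The median of the 37 lower genes was -0.92, with a range from -1.53 to -0.81. A doubling or more was reached by 19 higher genes, and a halving or more by 12 lower genes. These differences chose the genes and are given as a description. In the fit of all 16550 genes with limma, 62 of the 64 were called higher and 33 of the 37 lower in the combination at an adjusted p under 0.05, where 13.0% of all genes tested were called higher and 14.6% lower. The rule used this contrast, so nothing is read from those counts.

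**Figure D1:**
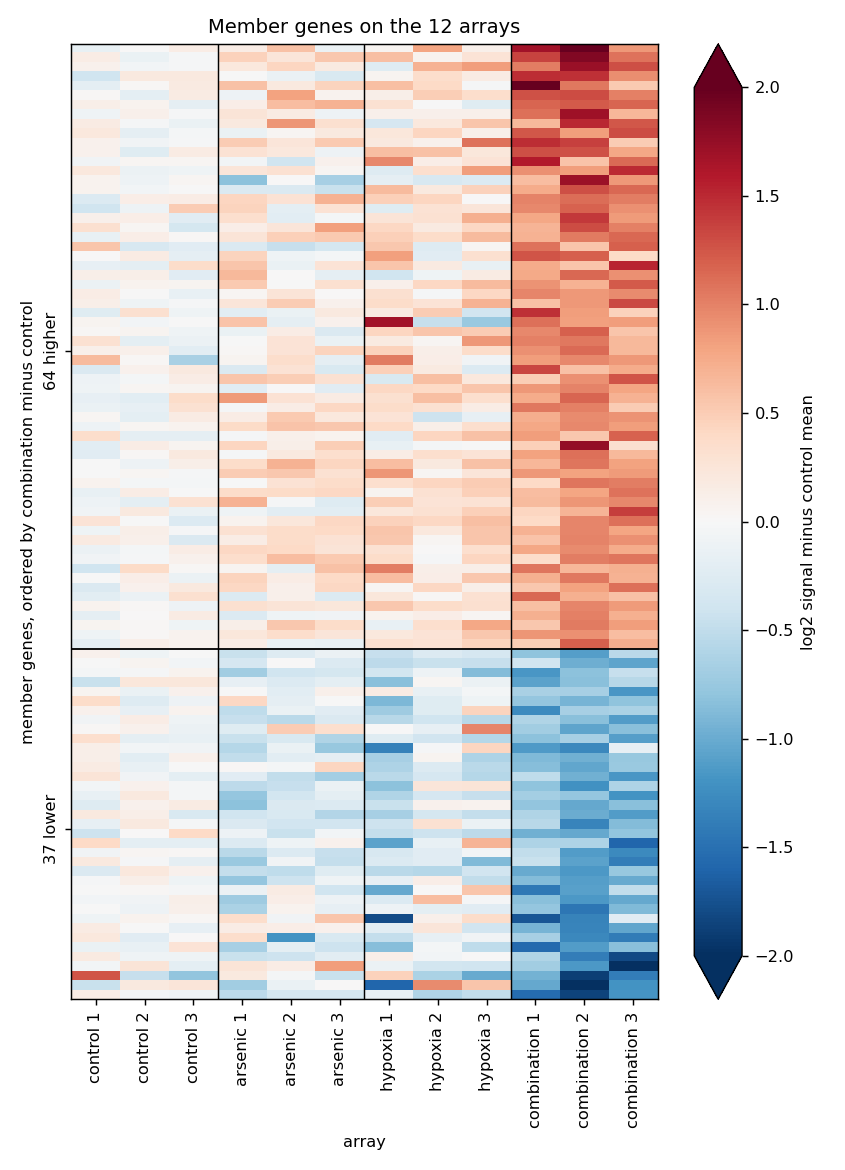
Log2 signal minus the control mean (colour) for the 101 genes (one line each, ordered by combination minus control) on the 12 arrays (columns, in groups of 3). The combination columns hold the strong colours for the 64 higher and the 37 lower genes, and hypoxia array 1 departs from the other hypoxia arrays in several lower genes.

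The largest difference belonged to AT5G53720. AT5G53720 signals were 2.29, 2.44 and 2.58 in control, 2.58, 3.02 and 2.32 in arsenic, 2.49, 3.22 and 2.54 in hypoxia and 4.11, 4.60 and 3.31 in combination roots. All 3 combination arrays stood above the other 9, and its 2.96-fold difference was 1.57 (SE 0.30). AT3G43580 read 6.26, 6.75 and 5.98 in the combination, against 5.05, 4.78 and 4.89 in control, 5.36, 5.14 and 5.45 in arsenic and 5.51, 4.98 and 5.18 in hypoxia roots. Again the combination arrays lay above all others, with a difference of 1.43 (SE 0.20), while arsenic (0.41) and hypoxia (0.32) stood close to each other. Control arrays of AT4G14390 read 6.25, 6.10 and 6.14, arsenic arrays 6.38, 6.59 and 6.35, hypoxia arrays 5.93, 6.86 and 7.01 and combination arrays 7.19, 7.88 and 7.46. Hypoxia arrays 2 and 3 of AT4G14390 were raised above the control and array 1 lay below it, so that the hypoxia mean of 0.43 above control joins unlike arrays, and the combination difference was 1.35 (SE 0.25).

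AT1G15760 was the gene among the 12 largest positive differences whose arsenic mean lay on the other side of the control (-0.15). AT1G15760 signals were 5.45, 6.06 and 6.06 in control, 5.85, 5.72 and 5.55 in arsenic, 5.90, 6.20 and 6.01 in hypoxia and 7.33, 7.32 and 6.79 in combination roots. The combination arrays lay above all 9 others, at a difference of 1.29 (SE 0.20). AT3G48640 read 5.54, 4.41 and 3.88 in the combination, against 3.16, 3.38 and 3.54 in control, 3.95, 3.55 and 3.81 in arsenic and 3.97, 3.76 and 3.34 in hypoxia roots. Here the 3 combination arrays were far apart, and combination array 3 lay below hypoxia array 1 and arsenic array 1, so the groups overlapped, and the difference of 1.25 (SE 0.33) for AT3G48640 was 0.79 without combination array 1. Control arrays of AT4G27220 read 3.42, 3.20 and 3.56, arsenic arrays 3.28, 4.20 and 3.47, hypoxia arrays 3.51, 3.89 and 3.74 and combination arrays 4.66, 4.69 and 4.40. Arsenic array 2 came nearest to the combination, whose 3 arrays stayed close to each other and above the rest, and the difference was 1.19 (SE 0.22).

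AT5G53220 had the tightest combination arrays of the 12. AT5G53220 signals were 5.05, 5.01 and 4.76 in control, 5.07, 5.56 and 5.64 in arsenic, 5.25, 4.93 and 4.70 in hypoxia and 6.10, 6.16 and 6.11 in combination roots. All arsenic arrays were above the control range, array 1 narrowly, and the hypoxia mean was level with it (0.02), against a combination difference of 1.18 (SE 0.18). AT1G15260 read 3.90, 4.50 and 3.46 in the combination, against 2.72, 2.90 and 2.78 in control, 3.05, 2.96 and 2.70 in arsenic and 2.90, 2.89 and 2.90 in hypoxia roots. The single treatments left AT1G15260 within 0.11 of the control, and the combination differed by 1.16 (SE 0.21). Control arrays of AT1G44180 read 4.89, 4.69 and 4.58, arsenic arrays 4.92, 5.61 and 5.04, hypoxia arrays 4.38, 4.94 and 5.28 and combination arrays 5.37, 6.23 and 5.96. In this gene arsenic array 2 exceeded combination array 1, and the difference was 1.13 (SE 0.27).

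The last 3 of the 12 were AT1G59790, AT1G14455 and AT3G19663. AT1G59790 read 3.39, 2.99 and 3.46 in the combination, against 2.36, 1.97 and 2.12 in control, 2.02, 2.18 and 2.34 in arsenic and 2.37, 2.57 and 2.25 in hypoxia roots. With singles at 0.03 and 0.25, the combination of AT1G59790 differed by 1.13 (SE 0.17), above all other arrays, and its control signals lay below the first quartile of every array. Control arrays of AT1G14455 read 3.58, 3.42 and 3.46, arsenic arrays 4.00, 3.73 and 4.01, hypoxia arrays 3.68, 3.58 and 4.57 and combination arrays 4.97, 4.86 and 4.00. Hypoxia array 3 exceeded combination array 3, which lay level with arsenic arrays 1 and 3, so the groups of AT1G14455 overlapped, at a difference of 1.12 (SE 0.28). AT3G19663 signals were 4.61, 4.29 and 4.68 in control, 4.82, 4.74 and 4.43 in arsenic, 5.13, 5.12 and 4.76 in hypoxia and 5.81, 5.81 and 5.29 in combination roots. The combination arrays of AT3G19663 lay above the other 9, with hypoxia next (0.48) and a combination difference of 1.11 (SE 0.19).

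**Figure D2:**
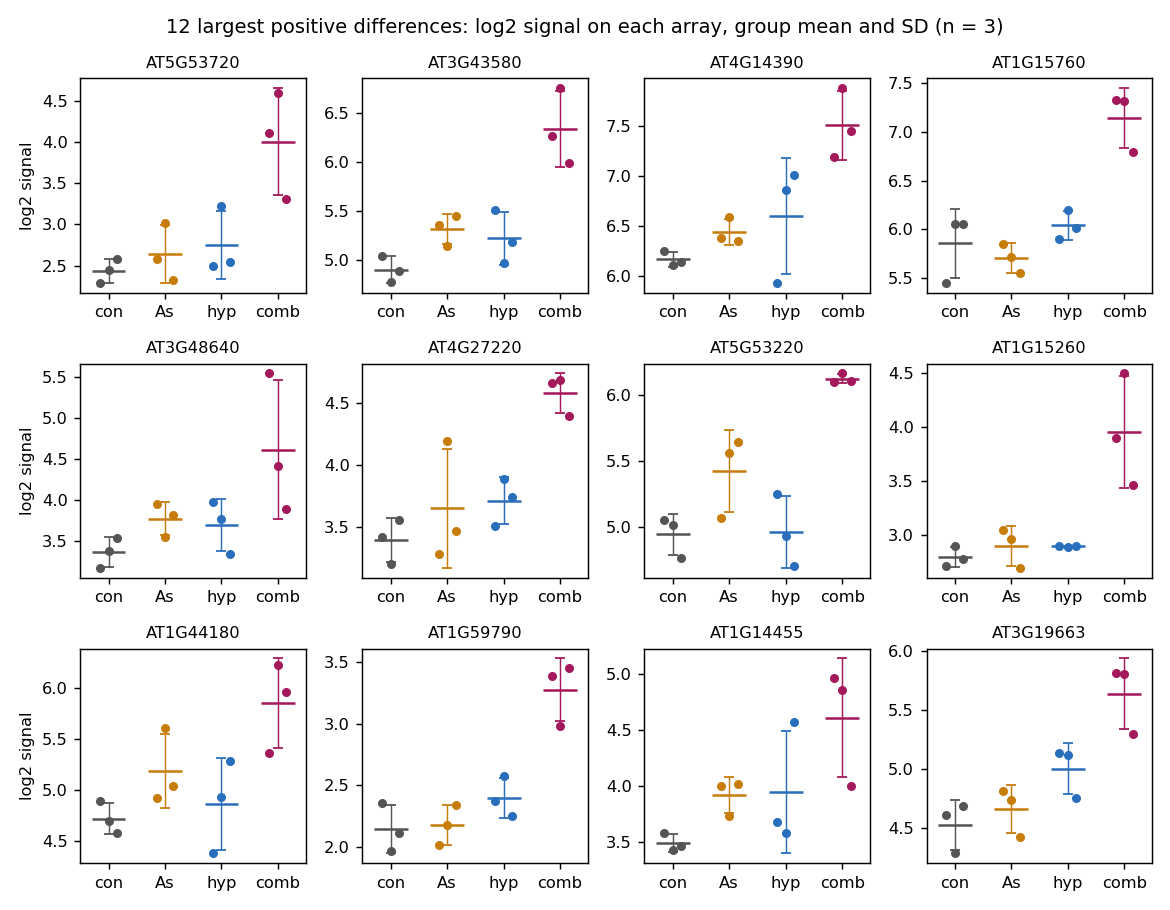
Log2 signal of the 12 genes with the largest positive combination minus control difference, in control (con), arsenic (As), hypoxia (hyp) and combination (comb) roots. Points are arrays, bars are group means and whiskers the SD of 3 arrays. In AT5G53720, AT3G43580, AT1G15760 and AT1G15260 every combination point lies above every other point, whereas points overlap in AT3G48640, AT1G44180 and AT1G14455. Each panel has its own scale.

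Among the 37 lower genes, AT1G30760 had the largest difference. AT1G30760 signals were 7.53, 7.33 and 7.30 in control, 6.86, 7.03 and 7.04 in arsenic, 7.23, 6.79 and 6.90 in hypoxia and 5.84, 5.52 and 6.20 in combination roots. Its combination arrays lay below all 9 others, at -1.53 (SE 0.18) or 2.88-fold lower, with arsenic and hypoxia both at -0.41. AT2G48080 read 6.77, 5.49 and 6.60 in the combination, against 7.35, 7.99 and 8.04 in control, 7.10, 7.66 and 7.80 in arsenic and 6.20, 8.74 and 8.35 in hypoxia roots. Hypoxia array 1 of AT2G48080 fell within the combination range while hypoxia arrays 2 and 3 were the highest of all, so its hypoxia mean of -0.03 is an average of opposite departures, and the combination differed by -1.51 (SE 0.54). Control arrays of AT2G24130 read 6.94, 5.23 and 4.90, arsenic arrays 5.88, 5.65 and 5.23, hypoxia arrays 6.15, 5.05 and 4.67 and combination arrays 4.74, 3.81 and 4.30. Control array 1 was the highest of the 12 and combination array 1 lay above hypoxia array 3, and the difference of -1.40 (SE 0.48) for AT2G24130 became -0.78 without control array 1.

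AT4G05170 moved apart under the single treatments. AT4G05170 signals were 5.04, 5.34 and 4.89 in control, 5.34, 5.24 and 5.93 in arsenic, 4.97, 4.73 and 4.68 in hypoxia and 4.40, 3.95 and 3.04 in combination roots. It stood above control in arsenic (0.41) and below it in hypoxia (-0.30), and the combination was -1.29 (SE 0.29), below all other arrays. AT1G29020 read 8.24, 7.46 and 7.04 in the combination, against 9.02, 8.75 and 8.76 in control, 8.40, 8.43 and 8.64 in arsenic and 8.96, 8.78 and 8.85 in hypoxia roots. Hypoxia was level with the control (0.02) and the combination was -1.26 (SE 0.24), with its arrays below all others. Control arrays of AT1G18940 read 7.09, 7.09 and 7.51, arsenic arrays 6.56, 7.03 and 6.81, hypoxia arrays 6.38, 7.19 and 6.73 and combination arrays 5.68, 6.11 and 6.39. Combination array 3 lay just above hypoxia array 1, so the groups of AT1G18940 touched, at a difference of -1.17 (SE 0.24).

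AT5G45670 and AT3G28940 contrasted in their spread. AT5G45670 signals were 6.10, 5.66 and 5.90 in control, 6.24, 4.69 and 5.59 in arsenic, 5.41, 5.73 and 5.82 in hypoxia and 5.23, 4.61 and 4.49 in combination roots. Arsenic array 2 reached the combination range of AT5G45670, whose difference was -1.12 (SE 0.32). AT3G28940 read 8.26, 7.86 and 8.14 in the combination, against 9.36, 9.18 and 9.03 in control, 9.34, 9.33 and 9.28 in arsenic and 8.98, 9.44 and 8.81 in hypoxia roots. The singles of AT3G28940 lay on either side of the control (0.12 and -0.11) and the combination was -1.10 (SE 0.18), clear of all 9 other arrays. Control arrays of AT3G53980 read 10.29, 10.45 and 10.40, arsenic arrays 10.73, 10.30 and 10.94, hypoxia arrays 8.60, 10.48 and 10.75 and combination arrays 8.67, 9.05 and 10.16. In AT3G53980 hypoxia array 1 was as low as combination array 1, and combination array 3 was close to the control arrays, so the difference of -1.09 (SE 0.48) came with overlapping groups.

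AT3G18560 read 6.53, 5.86 and 6.41 in the combination, against 7.30, 7.21 and 7.40 in control, 6.67, 7.38 and 7.13 in arsenic and 7.21, 7.11 and 7.08 in hypoxia roots. The combination of AT3G18560 lay below all other arrays at -1.03 (SE 0.20). AT1G23140 signals were 8.44, 8.43 and 8.61 in control, 7.79, 8.62 and 8.39 in arsenic, 8.22, 9.12 and 8.48 in hypoxia and 7.65, 7.34 and 7.47 in combination roots. AT1G23140 behaved likewise, at -1.01 (SE 0.24) in the combination and 0.11 in hypoxia. Control arrays of AT3G22810 read 7.21, 7.25 and 7.20, arsenic arrays 7.10, 7.38 and 6.83, hypoxia arrays 6.19, 7.23 and 7.77 and combination arrays 5.78, 6.14 and 6.72. For AT3G22810 hypoxia array 1 again joined the combination arrays and hypoxia array 3 was the highest of the 12, and the difference was -1.01 (SE 0.33).

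**Figure D3:**
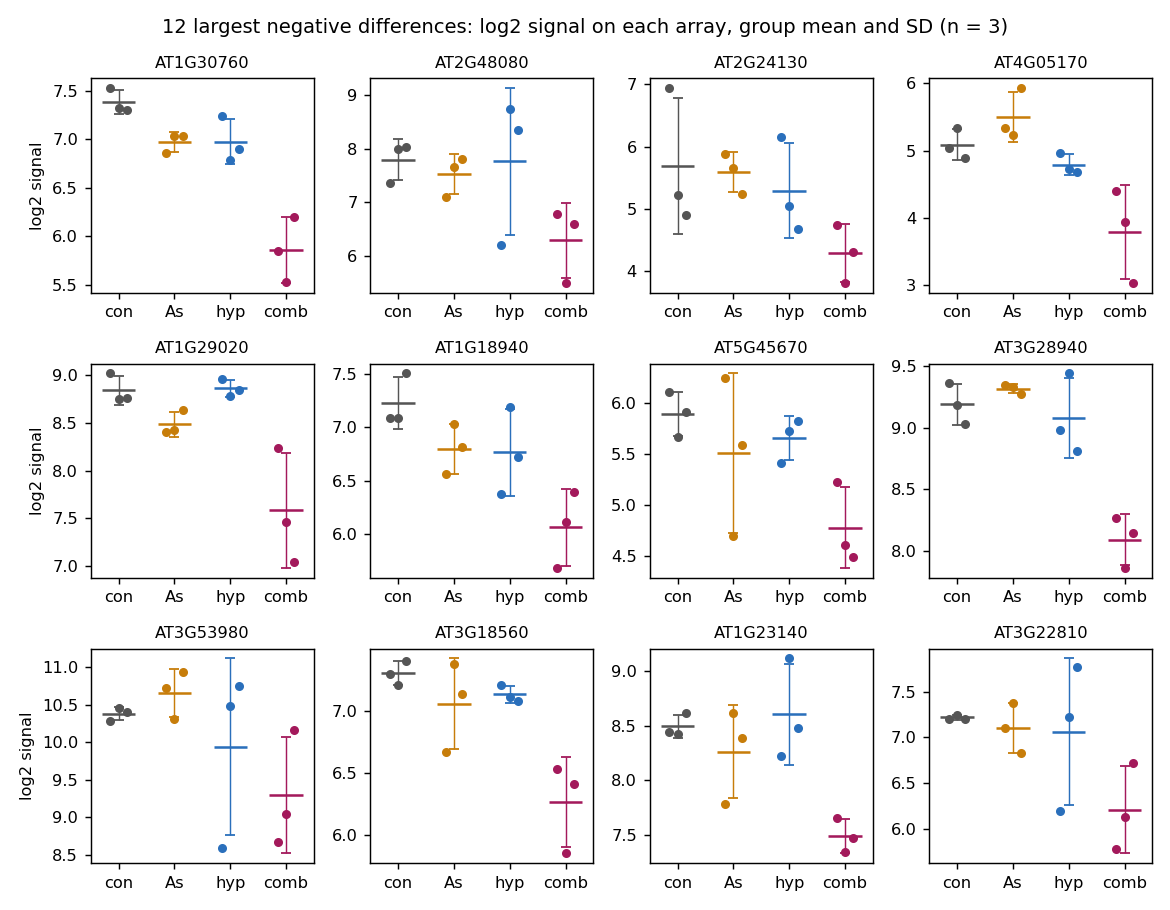
Log2 signal of the 12 genes with the largest negative combination minus control difference, in control (con), arsenic (As), hypoxia (hyp) and combination (comb) roots, with points for arrays, bars for group means and whiskers for the SD of 3 arrays. Every combination point of AT1G30760, AT3G28940 and AT1G23140 lies below every other point, whereas hypoxia array 1 lies with the combination in AT2G48080, AT3G53980 and AT3G22810. Each panel has its own scale.

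The combination arrays stood clear of all 9 other arrays, a condition the rule did not set, in 39 of the 64 higher and 17 of the 37 lower genes. Over all genes tested, 2.16% had combination arrays above and 1.96% below all others. The rule used the contrasts behind this count, and nothing is read from it. Combination arrays did not overlap the arsenic arrays in 52 higher and 29 lower genes (30.8% of all genes, in either direction), nor the hypoxia arrays in 45 and 21 (20.3% of all genes). For the single treatments the rule bounded both contrasts with the control, so the counts stand beside the shares of all genes and nothing is read from them. Arsenic arrays were clear of the control in 21 higher and 15 lower genes (39.1% of all genes), and hypoxia arrays in 21 and 12 (40.3%).

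The differences of arsenic, hypoxia and the combination from control share the same 3 control arrays, and the rule used all of them, so they are set side by side as values only. The median higher gene stood at 0.22 in arsenic, 0.32 in hypoxia and 0.90 in the combination. The median lower gene stood at -0.29, -0.31 and -0.92. In arsenic the limma test called 1 of the 101 genes, AT3G11960, higher at 0.49, where 8.34% of all genes were called higher and 9.58% lower. In hypoxia it called 4 higher (10.8% of all genes), AT5G24690, AT5G11710, AT4G25730 and AT4G21520, and 2 lower (13.7% of all genes), AT2G27430 and AT3G57830, so the words "near control" hold for the size of their change and not for its detectability.

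How far the combination went past the sum of the single differences varied from gene to gene. The rule kept the combination at least 0.8 from control and each single within 0.5. It thereby limited how far short of the sum a gene could fall. The sign of the excess was thus largely set by the choice of genes, and nothing is read from it or from the counts below. The sum was 0.50 in the median higher gene and the excess of the combination over the sum was 0.50, with a range from -0.12 to 1.82. In the median lower gene the sum was -0.56 and the combination went 0.38 further. The excess was at least 0.8 in 11 higher and 8 lower genes, and under 0.2 in 16 higher and 12 lower genes, whose combination value was thus close to adding up the parts. AT5G35450 was such a gene, at 0.50 in arsenic, 0.46 in hypoxia and 0.85 in the combination. AT4G27270 was its counterpart among the lower genes, at -0.48, -0.44 and -0.81.

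**Figure D4:**
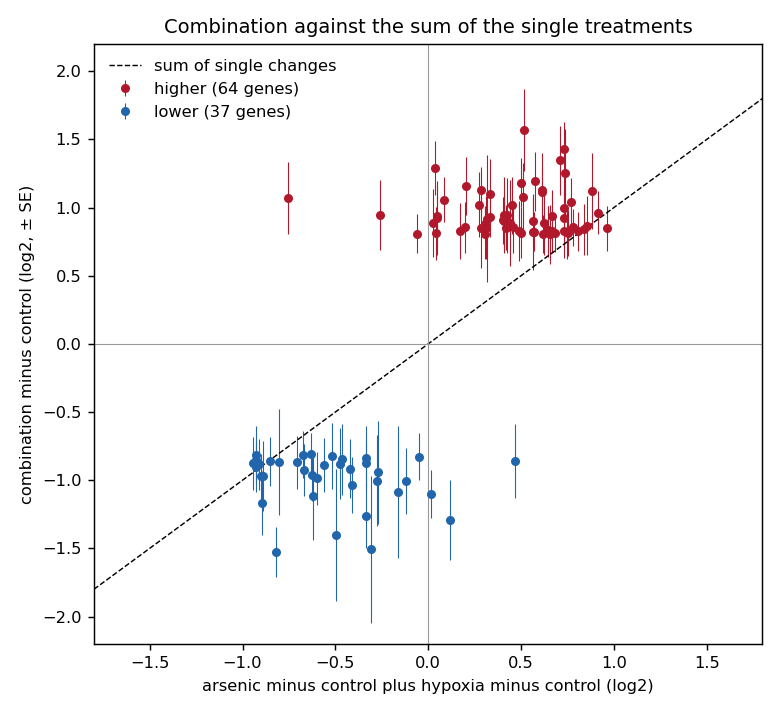
Combination minus control (vertical axis, log2, with the SE of the fitted difference) against the sum of arsenic minus control and hypoxia minus control (horizontal axis, log2) for the 64 higher and 37 lower genes. The dashed line marks a combination equal to the sum. Of the higher genes 2 lie below it and 5 of the lower genes lie above it. The gap at the centre, under 0.8 in size, was set by the rule. The rule also limited how far short of the sum a gene could fall.

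At the other end stood genes whose singles went against the combination. AT3G46480 was the higher gene with both singles below the control. AT3G46480 signals were 4.56, 4.39 and 4.52 in control, 3.67, 4.49 and 3.82 in arsenic, 4.31, 4.17 and 4.22 in hypoxia and 5.11, 6.21 and 5.36 in combination roots. Arsenic (-0.50) and hypoxia (-0.26) both lay below the control, and the combination arrays were above all others, at 1.07 (SE 0.26), which left an interaction of 1.82, the largest of the 101. AT2G22510 was the lower gene with both singles above the control. AT2G22510 read 8.61, 8.24 and 8.46 in the combination, against 9.33, 9.38 and 9.19 in control, 9.06, 9.81 and 9.63 in arsenic and 9.28, 9.13 and 10.27 in hypoxia roots. Hypoxia array 3 was the highest of the 12 and the combination was -0.86 (SE 0.27), with an interaction of -1.33.

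Some genes hardly moved under either single treatment. Control arrays of AT4G18940 read 5.37, 5.17 and 5.39, arsenic arrays 5.30, 5.09 and 5.41, hypoxia arrays 5.47, 5.15 and 5.27 and combination arrays 4.66, 4.64 and 4.14. In AT4G18940 arsenic (-0.04) and hypoxia (-0.01) were both at the control level and the combination was -0.83 (SE 0.17). AT5G43440 signals were 2.66, 3.21 and 2.81 in control, 2.68, 2.76 and 3.08 in arsenic, 3.07, 3.39 and 2.50 in hypoxia and 4.35, 3.74 and 3.35 in combination roots. AT5G43440 stood at -0.05 and 0.10 in the singles and at 0.92 (SE 0.27) in the combination, where hypoxia array 2 overlapped combination array 3. AT2G45360 (-0.10, 0.13 and 0.89) and AT3G26550 (-0.15, 0.09 and 0.81) had the same shape, with combination arrays above all others. In the order of the larger single difference, these genes, AT1G15260 and AT3G28940 were the 6 nearest to the control.

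The interaction, by how much the combination difference departs from the sum of the single differences, was called in 5 of the 101 genes. It was positive in 4 (1.34% of all genes tested) and negative in 1 (1.43%). The 5 were AT1G15760 (1.25), AT3G46480 (1.82), AT2G34670 (0.98), AT3G26550 (0.87) and AT3G28940 (-1.11). AT2G34670 read 6.26, 6.81 and 6.68 in the combination, against 5.60, 5.46 and 5.51 in control, 5.23, 5.24 and 5.07 in arsenic and 6.15, 5.72 and 5.99 in hypoxia roots. In AT2G34670 arsenic arrays lay below and hypoxia arrays above the control, and the combination lay above both. The interaction is a sum of the contrasts that chose the genes, so the count carries no support of its own. It was 10 with array weights, 2 with arrays re-centred on their medians and 3 with quantile normalization applied again. It fell to 0 in the limma fit without arsenic array 1, arsenic array 3, control array 2 or control array 3, where 26, 21, 23 and 21 genes had an unadjusted p under 0.05, and it was 1 without arsenic array 2 or combination array 2, 2 without hypoxia array 3, and 3 without hypoxia array 2 or combination array 3. With all arrays 27 of the 101 genes had an unadjusted p under 0.05. The share of all genes at that unadjusted threshold was not computed, so nothing is read from the unadjusted counts.

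Against arsenic alone, 50 of the 101 were called in the combination (37 higher and 13 lower), where 5.33% of all genes were called higher and 6.67% lower. Against hypoxia alone, 25 were called (15 higher and 10 lower), where 1.88% of all genes were called higher and 1.58% lower. Both contrasts are differences of those that the rule bounded, and nothing is read from the counts. The count against arsenic was 25 without arsenic array 3, 26 without combination array 2 and 32 without arsenic array 2, and 86 with array weights. The count against hypoxia was 3 without combination array 2, 8 without hypoxia array 2, 10 without combination array 3, 15 without control array 2, and 16 without control array 3 or arsenic array 3. The combination was closer to hypoxia than to arsenic in 41 of 64 higher and 21 of 37 lower genes. The share of all genes closer to hypoxia was not computed, so nothing is read from these 2 counts.

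Control signals of the higher genes were dimmer than those of the lower genes, by a comparison of medians without a test. The median control signal was 4.85 in the higher genes and 6.56 in the lower genes, beside 4.96 over all 14745 locus-coded genes. In 30 higher genes (46.9%) and 5 lower genes (13.5%) the control mean lay below 4.72, the lowest array median, as did 47.3% of locus-coded genes. In 10 higher genes it lay below 3.06, the lowest first quartile of the arrays, and in none of the lower genes. The dimmest was AT5G26717, at 1.39 in control and 2.34 in combination roots, and combination signals of 19 higher genes still lay below 4.72.

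At the bright end, 4 higher and 6 lower genes had a control mean of at least 9. AT3G32980 was the brightest. Control arrays of AT3G32980 read 11.08, 11.20 and 11.18, arsenic arrays 10.61, 10.88 and 10.69, hypoxia arrays 10.83, 10.93 and 11.10 and combination arrays 10.66, 10.04 and 9.87. Its combination arrays 2 and 3 lay well below all others and array 1 lay among the arsenic arrays, at a difference of -0.96 (SE 0.19). AT3G22240 averaged 9.63 in control and 8.65 in combination roots and AT1G76200 9.41 and 8.54, both with combination arrays below the other 9. AT5G11710 was clear upwards. AT5G11710 read 10.25, 10.38 and 10.18 in the combination, against 9.29, 9.42 and 9.45 in control, 9.15, 9.39 and 9.16 in arsenic and 9.80, 9.79 and 9.94 in hypoxia roots. Its hypoxia arrays also lay above the control and its arsenic mean slightly below (-0.15), and the combination difference of 0.88 (SE 0.13) had the smallest SE of the 64.

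**Figure D5:**
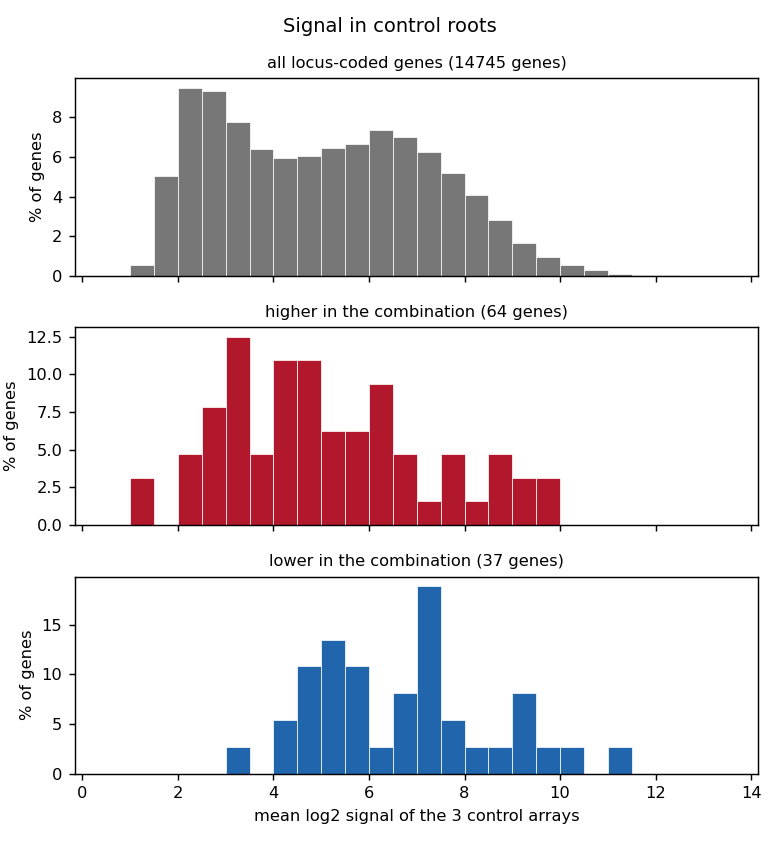
Distribution of the mean log2 signal of the 3 control arrays (horizontal axis, in steps of 0.5) as a percent of genes (vertical axis) for all 14745 locus-coded genes, the 64 higher and the 37 lower genes. The higher genes spread over dim and bright signals with a median of 4.85, and no lower gene lies below 3.06 (median 6.56).

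Arrays of the combination did not carry the differences equally. Combination array 2 was the most extreme of the 3 in 35 of 64 higher and 18 of 37 lower genes, combination array 1 in 14 and 6, and combination array 3 in 15 and 13. Array 1 was the least extreme in 28 and 22. The matching shares over all genes were not computed, so these counts are not read as a trait of the 101 genes. The SD among combination arrays had a median of 0.30 in these genes and 0.21 over all genes, and in 15 of the 101 it exceeded 0.5 (7.04% of all genes). Among hypoxia arrays it exceeded 0.5 in 16 genes (11.3% of all genes), in control arrays in 2 (4.30%) and in arsenic arrays in 1 (4.76%). The rule required control and combination arrays not to overlap, which bears on their spread, so nothing is read from these counts.

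Hypoxia array 1 stood nearest to the combination side of the 3 hypoxia arrays in 22 of 37 lower genes, array 3 in 10 and array 2 in 5. In the 64 higher genes array 3 was nearest most often (27), then array 1 (25) and array 2 (12). For these counts too the shares over all genes were not computed, and nothing is read from them. Across all genes hypoxia array 1 and combination array 1 correlated at r = 0.982, the highest value between arrays of different groups. Hypoxia array 1 correlated less with hypoxia arrays 2 and 3 of its own group (r = 0.973 and 0.972). The 6 genes that limma did not call against control were AT1G50040, AT3G23260, AT2G38390, AT3G22410, AT3G53980 and AT2G48080, and each had a hypoxia SD between 0.59 and 1.37. A hypoxia SD over 0.5 was found in 16 of the 101, so other genes with such a spread were called. AT3G23260 also had a control SD of 0.64, above its hypoxia SD. AT1G50040 signals were 4.85, 4.74 and 4.77 in control, 5.36, 4.61 and 4.87 in arsenic, 6.47, 4.32 and 4.04 in hypoxia and 5.89, 5.60 and 5.62 in combination roots. In AT1G50040 hypoxia array 1 lay above the combination and hypoxia arrays 2 and 3 lay below the control. The mean hypoxia difference of AT1G50040 was 0.16 and its combination difference 0.92 (SE 0.46). Control arrays of AT2G38390 read 7.50, 7.34 and 7.31, arsenic arrays 6.81, 7.25 and 6.62, hypoxia arrays 6.04, 7.37 and 7.81 and combination arrays 6.24, 6.09 and 7.22. Combination array 3 of AT2G38390 was also close to the control, at a mean difference of -0.87 (SE 0.39). The part of hypoxia array 1 in the choice of genes was not tested beyond leaving it out. Without it 130 locus-coded genes met the rule, of which 86 were among the 101.

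Membership depended on small shifts of the scale. The median change of all genes tested in the combination was 0.09. Re-centring used array medians over all 38408 rows, including rows without a listed gene. It adds 0.11 to each combination minus control difference, 0.18 to each hypoxia minus control difference and 0.01 to each arsenic minus control difference. The 0.11 has the same sign as the 0.09, so re-centring does not remove that median change. After re-centring, 93 locus-coded genes met the rule, of which 50 were among the 101 (31 higher and 19 lower). With quantile normalization again 98 met it, 72 of them among the 101. Leaving out 1 array at a time left between 57 (without control array 1) and 92 (without arsenic array 1) of the 101. Without combination array 1 the number of genes that met the rule rose from 101 to 153, of which 87 were among the 101. With the combination bound at 1 there were 31 genes, and with the single bound at 0.3 there were 25.

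A core of 14 genes met the rule whichever array was left out, and 12 of these also did so after re-centring and after quantile normalization. The 12 were AT5G53720, AT3G43580, AT1G15760, AT1G15260, AT1G59790, AT1G61440, AT3G61111 and AT1G76780, higher in the combination, and AT1G29020, AT3G28940, AT3G18560 and AT1G23140, lower. AT4G27220 and AT5G11710 met it without any 1 array but not with one or both of the other scalings. AT1G61440 read 5.40, 5.61 and 5.35 in the combination, against 4.03, 4.33 and 4.94 in control, 4.88, 4.25 and 4.72 in arsenic and 4.19, 4.72 and 4.67 in hypoxia roots. The control arrays of AT1G61440 were far apart, yet all combination arrays lay above the other 9, at 1.02 (SE 0.24). Control arrays of AT3G61111 read 3.25, 3.26 and 2.91, arsenic arrays 3.78, 3.15 and 2.97, hypoxia arrays 2.74, 3.05 and 3.30 and combination arrays 3.89, 4.28 and 4.06. In AT3G61111 arsenic array 1 came nearest to the combination, which differed from control by 0.94 (SE 0.22). AT1G76780 signals were 7.14, 6.99 and 6.85 in control, 7.03, 7.25 and 7.00 in arsenic, 7.32, 6.97 and 7.41 in hypoxia and 7.97, 7.86 and 7.94 in combination roots. AT1G76780 had combination arrays close to each other and above the rest, at a difference of 0.93 (SE 0.15). These 12 were named after their values had been seen.

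Genes at the edge of the rule differed little from those it left out. AT1G58150 (0.80) was the higher gene nearest to the bound from inside, and AT3G48770 (0.795) was the nearest outside. AT3G50620 (-0.81) and AT1G08230 (-0.797) were the corresponding lower pair. For the single treatments, AT5G35450 (0.497 in arsenic) was just inside and AT3G50780 (-0.5005 in arsenic, -0.88 in the combination) just outside, and AT3G44700 (0.497 in hypoxia) was just inside and AT3G15780 (0.504 in hypoxia, 0.92 in the combination) just outside. A further 10 locus-coded genes passed every numeric bound but had overlapping control and combination arrays.

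Rows of the table that name a gene together with others gave a further reading of 3 of the 101 genes, on the same arrays. AT1G24851 shares rows with the loci AT1G25025, AT1G25112 and AT1G25180, and those rows averaged 11.97 in the combination and 11.07 in control roots, a difference of 0.90. Its own row gave 0.82, and on the shared rows the loci cannot be told apart. The row that AT3G57350 shares with AT3G57340 stood at 0.38 in the combination and -0.41 in arsenic, beside 0.82 and 0.50 on its own row. The row shared by AT5G43440 and ETFBETA, an electron transfer flavoprotein subunit, stood at 0.16, beside 0.92. In hypoxia this row stood at 0.43 and the row shared with AT3G57340 at 0.53, both above their combination values. The shared rows of AT1G24851 stood at 0.31 in hypoxia, below their combination value. No gene of the 101 had a second row of its own.

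The genes lay on all 5 nuclear chromosomes, with 20, 3, 16, 10 and 15 higher genes and 9, 7, 9, 8 and 4 lower genes on chromosomes 1 to 5, in all between 0.444% (chromosome 2) and 0.833% (chromosome 4) of the locus-coded genes measured on each. None of the 99 matched genes was directly beside another in the order of protein-coding genes of the RefSeq table (assembly TAIR10.1). Of these genes 90 had at least 1 measured neighbour, 133 neighbours in all. Of the 84 neighbours of higher genes 9 (10.7%) were called higher in the combination and 5 (5.95%) lower, and of the 49 neighbours of lower genes 8 (16.3%) were called lower and 10 (20.4%) higher, beside 13.0% called higher and 14.6% lower over all genes. The neighbours' median differences were 0.10 and 0.04. AT5G53730, next to AT5G53720, stood at 1.70 in the combination and already at 1.59 in hypoxia.

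Of genes with a symbol, 13 of 1805 (0.720%) met the same rule, against 101 of 14745 (0.685%) of the locus-coded genes. Among the 13 were genes of known function. The stromal ascorbate peroxidase SAPX (AT4G08390), which removes hydrogen peroxide with ascorbate, stood at -0.98 in the combination (SE 0.21), and the monodehydroascorbate reductase ATMDAR2 (AT5G03630), which regenerates ascorbate, stood at 0.81 (SE 0.23). The serine carboxypeptidase-like gene scpl28 was at -1.55 and the glucosyltransferase gene UGT84A4 at -1.52, beside -1.53 for the largest of the 37. The laccase LAC16 was at -0.80. The expansin EXPA4, which loosens cell walls, was at 0.87, and the chromatin remodelling subunit gene BSH at 1.11. The gene listed under the symbol PWD (AT4G24450) was at 0.82, and the spermidine disinapoyl acyltransferase SDT at 0.89. SCRL18, LCR67, LOJ and LRE made up the rest, at 0.83 to 0.96.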

How the data were processed

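Root RNA of 12 samples (4 groups of 3) was measured on Affymetrix arrays, prepared with the GeneChip WT PLUS kit per the labels' protocols. The authors deposited RMA-summarised log2 signals, 1 per probe set. The submitters' processing notes name Transcriptome Analysis Console 3.1 and Affymetrix Expression Console 1.4 and 1.4.1. The values were used as deposited. RMA makes signal distributions more alike between arrays, so a shift shared by most genes can be hidden. The deposited arrays were not fully alike. Their medians were 4.92 to 4.99 in control, 4.88 to 4.97 in arsenic, 4.72 to 4.78 in hypoxia and 4.78 to 4.86 in combination roots. Of 38408 rows, the probe annotation listed 17481, and 16722 named 1 gene. The row with the highest mean stood for each of 146 genes with several rows, which left 16550 genes, 16411 of them matched to RefSeq (TAIR10.1), used for names and gene order.

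All 16550 genes were fitted by lmFit and eBayes (limma 3.58.1, R 4.3.3) with 4 group means and 12 arrays, two-sided tests, Benjamini-Hochberg adjustment over all genes and a threshold of 0.05. SEs are from this fit. The fit was tested on simulated data. The number of arrays limits the precision.

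The genes, lists and rule were chosen with earlier results of these data known. The 12 largest differences in each direction and the genes nearest to each bound were named by rule, and the other genes were named after their values had been seen. Alternatives were re-centring, repeated quantile normalization, array weights, a trended and robust prior, a replicate block, the mean of a gene's rows, a filter on dim genes, other bounds and leaving out each array. Planned classes by product and promoter motifs were not analysed here, since the tables used hold no product descriptions or sequences.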

Additional observations from a re-analysis of the deposited data

Results flagged for a closer look

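The interaction term of the limma fit, the difference of the arsenic effect with and without hypoxia, had an adjusted p under 0.05 in 5 of the 101 genes. The interaction was 1.25 for AT1G15760, 1.82 for AT3G46480, 0.98 for AT2G34670, 0.87 for AT3G26550 and -1.11 for AT3G28940 on the log2 scale. Over all genes tested, 1.34% were called with a positive and 1.43% with a negative interaction. The genes were chosen on contrasts that make up this term, so nothing is read from the count, which was 2 after re-centring, 3 after quantile normalization and 0 to 6 with 1 array left out.

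The probe annotation leaves 20927 rows without a gene. Of these, 149 met the same rule with a higher and 92 with a lower combination signal, 1.15% of them. These rows were not tested and are not named.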

How the results depend on the processing

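The count of 101 genes was 93 after re-centring, 98 after quantile normalization, 102 with the mean of a gene's rows and 76 without dim genes, and it was 31 with a combination bound of 1, 25 with a single bound of 0.3 and 94 to 153 without 1 array. Genes called in the combination against control, 4578 of all genes, ranged from 3494 to 4831 without 1 array, and members called, 95, from 81 to 100. With array weights 6106 genes and 98 members were called in this contrast, and after re-centring 5122 genes and 93 members. Members called against arsenic, 50, were 86 with array weights and 25 to 58 without 1 array. Members called against hypoxia, 25, were 3 to 33 without 1 array. Members called for the interaction, 5, were 2 after re-centring, 3 after quantile normalization, 10 with array weights and 0 to 6 without 1 array. Fewer arrays in a fit lower its power, yet some counts rose with 1 array left out, and the cause of the moves was not tested. With the replicate block, 4690 genes and 96, 52, 22 and 5 members were called in the contrasts against control, arsenic and hypoxia and for the interaction. Replicates are stated to be independent, and deviations of arrays with the same number correlated at -0.08 to 0.31, beside -0.33 to 0.16 for other numbers, and not every same-number value was over 0.1, so the numbers were not taken as pairs. The own number correlated best in 21 of 36 cases, where 12 would be reached with no relation, a hint of shared numbers from the data and not from the design. Dim genes limit the reading of the higher set, of which 30 (46.9%) had a control mean below every array median. The share was alike over all locus-coded genes (47.3%), so it is no trait of the higher set.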
